A study of Mus musculus with 9 samples.

Results

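The genes described here make up the protein-folding, quality-control and export machinery of the endoplasmic reticulum (ER), together with the sensors and transcription factors of the unfolded protein response. A fixed list of 42 gene symbols was looked up in the count tables of mouse CD8+ T cells, the cytotoxic class of T lymphocyte. That list was chosen with earlier results of these data known, so member shares set beside all-gene shares are no independent test. The rule itself chose no member by its measured values. It kept symbols found in the tables and left 41 genes of 20418 symbols: 9 chaperones and co-chaperones, 8 lectin chaperones and disulfide enzymes, 7 genes of ER-associated degradation, 4 sensors and regulators, 11 genes of the translocon and signal peptidase, and 2 genes of the COPII coat. RNA was sequenced from splenic CD8+ T cells of 6-week-old female C57BL/6 mice in 9 libraries. Cells had been given IL-15 or IL-2, both cytokines that signal through shared receptor chains, at a dose of 500 or 1 nM, and were taken after 24 or 4 h, with 1 library for each of the 8 combinations and 1 library of untreated cells. Each library pooled RNA from 3 identically treated samples, so there was no replicate of any condition, and the labels name no cell sorting. All cells came from the same strain with no transgene named.

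Proteins that enter the secretory pathway are threaded through the translocon into the ER, cut by signal peptidase, folded by chaperones and disulfide isomerases, and packed into COPII vesicles or, when misfolded, sent back to the cytosol for degradation. When unfolded proteins build up, the membrane sensors IRE1 (Ern1), ATF6 and PERK (Eif2ak3) start the unfolded protein response. IRE1 splices Xbp1 mRNA, and the XBP1 and ATF6 proteins then raise transcription of chaperones and degradation factors, while PERK slows translation and acts through ATF4. In lymphocytes the response is best known from antibody-secreting plasma cells, and activated T cells also use it as they enlarge and begin to secrete effector proteins.

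The DNA element through which ATF6 and XBP1 act, the ER stress response element, is shown first because several members that rose at the high dose carry it. RefSeq promoter windows of GRCm38.p6, from 250 bases before to 50 bases after the annotated start, were found for 33 of the 41 members. The element was searched on both strands as CCAAT, 9 bases of any kind and CCACG, and 9 of 33 members held it (27.3%), against 37 of 27025 genes with a window (0.137%). Because the list holds genes of the response that this element serves, the larger share is not an independent result. The sites lay 44 to 212 bases before the start. They are written in the orientation of the motif, 5′ to 3′, with its fixed letters in capitals and their GRCm38.p6 coordinates:
Calr, chr8:84847075-84847093: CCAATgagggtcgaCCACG
Canx, chr11:50325800-50325818: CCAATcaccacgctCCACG
Creld2, chr15:88819520-88819538: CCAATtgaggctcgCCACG
Derl3, chr10:75893242-75893260: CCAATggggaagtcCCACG
Dnajc3, chr14:118937827-118937845: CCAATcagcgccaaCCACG
Hsp90b1, chr10:86705638-86705656: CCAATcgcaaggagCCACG
Hsp90b1, chr10:86705533-86705551: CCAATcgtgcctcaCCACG
Hspa5, chr2:34772025-34772043: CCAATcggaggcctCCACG
Pdia6, chr12:17266491-17266509: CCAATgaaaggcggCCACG
Syvn1, chr19:6046532-6046550: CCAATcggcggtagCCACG
A related element, ERSE-II, searched on both strands as ATTGG, 1 base of any kind and CCACG, was in 2 of 33 members (6.06%) and in 12 of 27025 genes (0.0444%). Both sites are written in the same way:
Dnajb11, chr16:22857852-22857862: ATTGGcCCACG
Herpud1, chr8:94386377-94386387: ATTGGgCCACG
The XBP1-binding core TGACGTGG was found in 1 member, Sec24d (3.03%), and in 193 genes (0.714%). These motifs did not overlap in any member window. Whole windows are given for the chaperones Hspa5, Hsp90b1 and Creld2, each on its gene's strand with the motif's fixed letters in capitals. That of Hspa5 is chr2:34771840-34772139 on the plus strand, that of Hsp90b1 is chr10:86705395-86705694 on the minus strand, and that of Creld2 is chr15:88819396-88819695 on the plus strand:
Hspa5: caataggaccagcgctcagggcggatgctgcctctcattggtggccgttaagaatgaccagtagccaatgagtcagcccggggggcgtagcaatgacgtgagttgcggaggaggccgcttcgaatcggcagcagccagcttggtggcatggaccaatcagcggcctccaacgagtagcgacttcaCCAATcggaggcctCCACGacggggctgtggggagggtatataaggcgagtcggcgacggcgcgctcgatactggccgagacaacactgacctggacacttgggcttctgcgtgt
Hsp90b1: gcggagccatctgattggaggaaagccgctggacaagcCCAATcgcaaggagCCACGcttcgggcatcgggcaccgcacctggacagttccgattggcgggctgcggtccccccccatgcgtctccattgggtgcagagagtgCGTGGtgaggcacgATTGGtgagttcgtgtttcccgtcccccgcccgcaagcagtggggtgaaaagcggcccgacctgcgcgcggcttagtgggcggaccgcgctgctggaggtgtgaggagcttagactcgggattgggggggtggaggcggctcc
Creld2: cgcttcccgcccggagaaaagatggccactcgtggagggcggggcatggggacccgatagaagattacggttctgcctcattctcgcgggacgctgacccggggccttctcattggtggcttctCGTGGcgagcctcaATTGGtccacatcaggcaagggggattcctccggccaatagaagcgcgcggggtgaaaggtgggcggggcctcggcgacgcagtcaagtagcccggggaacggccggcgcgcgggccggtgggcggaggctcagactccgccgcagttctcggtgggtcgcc
Hsp90b1 held 2 copies, and Hspa5 and Creld2 held 1 copy each. A match describes the letters only. At 24 h, 6 of the 9 members with the longer element passed the dose test described below as higher at 500 nM, and with ERSE-II included the count was 7 of 11. Of the 22 windowed members with neither element, 8 were higher and 2 lower, and over all genes tested 15.6% were higher and 15.6% lower. The difference between members with and without an element was not tested.

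The libraries held 27158143 to 48799962 reads on annotated transcripts, the fewest with IL-15 at 1 nM for 4 h, and a count of 0 allows up to 0.0615 to 0.110 RPKM for a transcript of 1 kb by counting error alone. Levels below are in RPKM, reads scaled by exon length and library size, computed from the counts with library sizes scaled by TMM. The T cell markers, 8 measured, summed to between 3079 and 3934 CPM (counts scaled by the same TMM library sizes but not by length) at 500 nM, 2775 to 4562 CPM at 1 nM and 4402 CPM in untreated cells, and Cd8a was between 393 and 985 CPM. Markers of other cell types were also detected. Summed myeloid markers (12 listed, 11 tested) lay between 30.4 and 209 CPM at 500 nM, 279 and 919 CPM at 1 nM and at 1946 CPM in untreated cells. Summed B cell markers (12) lay between 278 and 491 CPM at 500 nM, 648 and 926 CPM at 1 nM and at 821 CPM in untreated cells. Plasma cell markers outside the ER genes, several of which T cells also express, summed to between 169 and 265 CPM at 500 nM, 199 and 257 CPM at 1 nM and 260 CPM in untreated cells. Of their defining genes, Tnfrsf17 was at 0 in 7 of 9 libraries. Pax5 of B cells was at 0 in 6 of 9, and Itgam of myeloid cells in 5 of 9. Between 500 nM and 1 nM at 24 h, 10 of 11 myeloid, 10 of 12 B cell and 4 of 9 plasma cell markers tested were lower, and 1 plasma cell marker, Irf4, was higher. Hbb-b1 and Hbb-b2, both erythroid markers, had equal values in every library, so 1 measurement is counted under both symbols here and below. Of 6 dendritic cell markers 3 were lower, of 6 NK cell markers 2, of 5 erythroid markers 3 and of 8 T cell markers 4, with 2 T cell markers higher. The part of these cells in the results was not tested, and in such bulk RNA fewer cells of a type and less RNA per cell cannot be told apart.

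**Figure D1:**
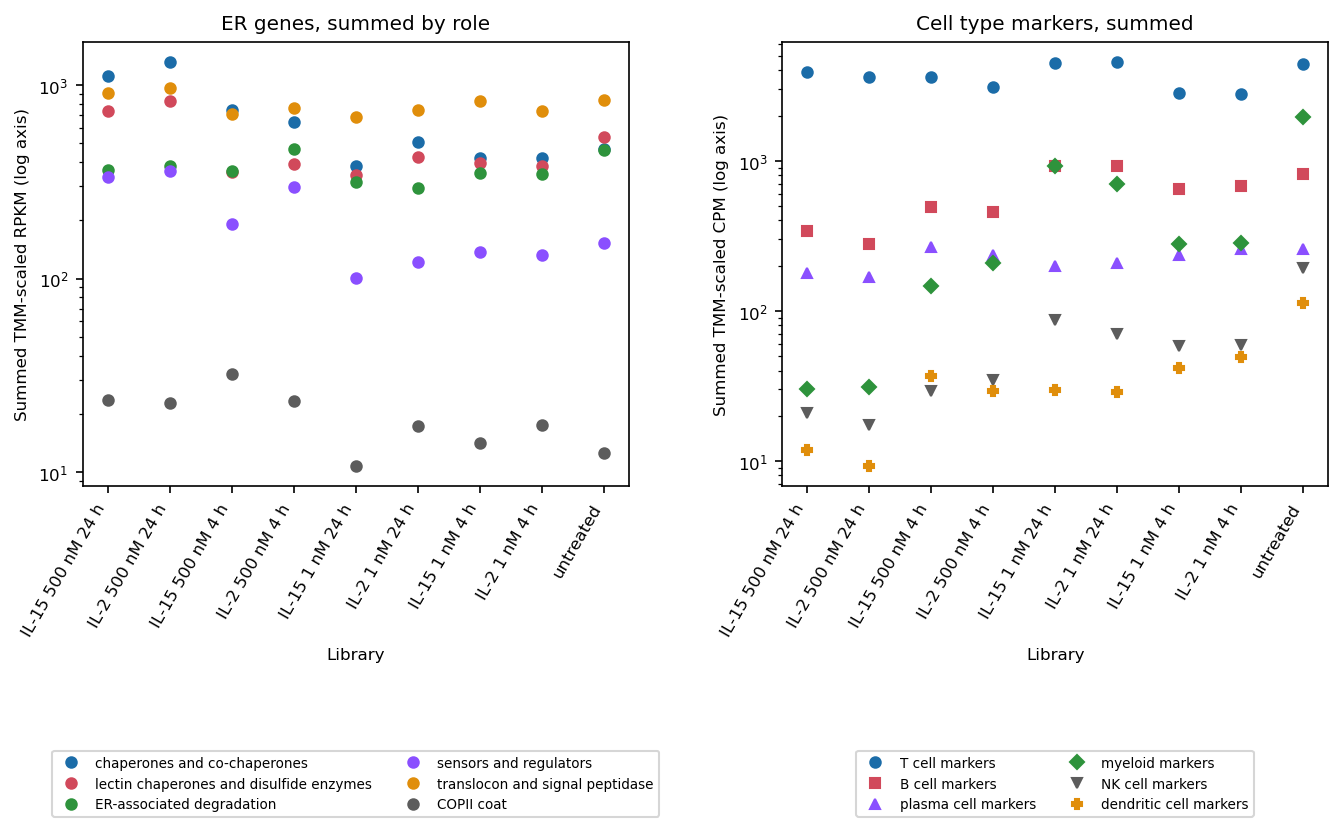
Summed levels in each of the 9 libraries, on log axes, of the ER genes by role (left, TMM-scaled RPKM) and of cell type markers (right, TMM-scaled CPM); each symbol is 1 library with no error bar. Chaperones were highest in the libraries at 500 nM and 24 h (1118 RPKM with IL-15 and 1317 RPKM with IL-2), where myeloid markers were lowest.

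Dose was compared at 24 h first. Most of the chaperones and disulfide enzymes were higher at 500 nM than at 1 nM, nearly all of these by 2- to 6-fold, and none of the degradation genes passed. Of 41 members, 20 were higher and 2 lower at 500 nM in edgeR's quasi-likelihood test (adjusted p under 0.05 over 13479 genes), where 15.6% of all genes were higher and 15.6% lower (31.2% in all). The median log2 change was 0.64 over the members and −0.04 over all genes. Without the library of IL-2 at 500 nM and 24 h, 13 members passed, and 12 of the 22 calls held with each library left out in turn. Fewer of all genes passed too without the 24 h library of IL-2 at 500 nM. P-values here measure the spread between pooled libraries, with the IL-15 and IL-2 libraries of a dose and time taken as 2 samples of that condition. The mean cytokine difference was fitted, and a cytokine difference that varied with dose or time counted as spread.

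Among the chaperones and co-chaperones, 7 of 9 rose and 1 fell, with a median log2 change of 1.35. Hspa5 encodes BiP, the ER's Hsp70, which holds unfolded chains and the inactive sensors, and whose promoter element is printed above. Its level was 294 RPKM with IL-15 and 322 RPKM with IL-2 at 500 nM, against 90.8 RPKM with IL-15 and 113 RPKM with IL-2 at 1 nM. The 500 nM libraries lay above those at 1 nM and above the untreated library, at 111 RPKM, and the log2 change was 1.60 ± 0.21 (SE, edgeR adjusted p = 0.0002). Sdf2l1, a partner of the ER J-protein complexes, measured 172 RPKM with IL-15 and 242 RPKM with IL-2 at 500 nM, against 19.5 RPKM with IL-15 and 56.5 RPKM with IL-2 at 1 nM. The IL-2 library at 1 nM was close to the untreated level of 61.5 RPKM, and the change of 2.51 ± 0.36 was the largest among the members (adjusted p = 0.00029). Creld2, an ER-stress-inducible protein with isomerase activity, was at 157 RPKM with IL-15 and 202 RPKM with IL-2 at 500 nM, against 50.4 RPKM with IL-15 and 59.0 RPKM with IL-2 at 1 nM. Its untreated level was 59.7 RPKM, within the range of the 4 libraries at 1 nM, and it rose by 1.71 ± 0.21 at 500 nM (adjusted p = 0.00013). Hsp90b1, the ER's Hsp90 (GRP94), was at 158 RPKM with IL-15 and 175 RPKM with IL-2 at 500 nM, against 57.5 RPKM with IL-15 and 68.7 RPKM with IL-2 at 1 nM. In untreated cells it was 55.0 RPKM, below all 8 treated libraries, and the dose change was 1.41 ± 0.20 (adjusted p = 0.00028).

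Dnajb11, the J-protein ERdj3 that delivers substrates to BiP, measured 73.2 RPKM with IL-15 and 86.0 RPKM with IL-2 at 500 nM, against 30.2 RPKM with IL-15 and 41.1 RPKM with IL-2 at 1 nM. The untreated library had 29.3 RPKM, the lowest of the 9, and the log2 change was 1.16 ± 0.19 (adjusted p = 0.00073). Manf, a secreted ER-stress protein that binds BiP, was at 204 RPKM with IL-15 and 226 RPKM with IL-2 at 500 nM, against 74.3 RPKM with IL-15 and 109 RPKM with IL-2 at 1 nM, a change of 1.24 ± 0.22 (adjusted p = 0.001). Hyou1, a nucleotide exchange factor for BiP, was low, at 5.41 RPKM with IL-15 and 6.38 RPKM with IL-2 at 500 nM, against 2.16 RPKM with IL-15 and 2.45 RPKM with IL-2 at 1 nM, and rose by 1.35 ± 0.39 (adjusted p = 0.02), a call lost when any of the 4 libraries at 24 h was left out. Dnajb9 (ERdj4), a BiP co-chaperone that represses IRE1, went the other way. Its level was 12.2 RPKM with IL-15 and 16.7 RPKM with IL-2 at 500 nM, against 26.9 RPKM with IL-15 and 21.7 RPKM with IL-2 at 1 nM, and all 8 treated libraries were below the untreated 30.8 RPKM. It fell at 500 nM, with a log2 change of −0.76 ± 0.23 (adjusted p = 0.023). That call was lost when the 24 h library of IL-15 at 500 nM (−0.48, adjusted p = 0.38) or at 1 nM (−0.48, adjusted p = 0.24) was left out. Dnajc3, the co-chaperone p58IPK, did not pass, with 41.3 RPKM with IL-15 and 39.3 RPKM with IL-2 at 500 nM, against 32.0 RPKM with IL-15 and 34.5 RPKM with IL-2 at 1 nM.

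**Figure D2:**
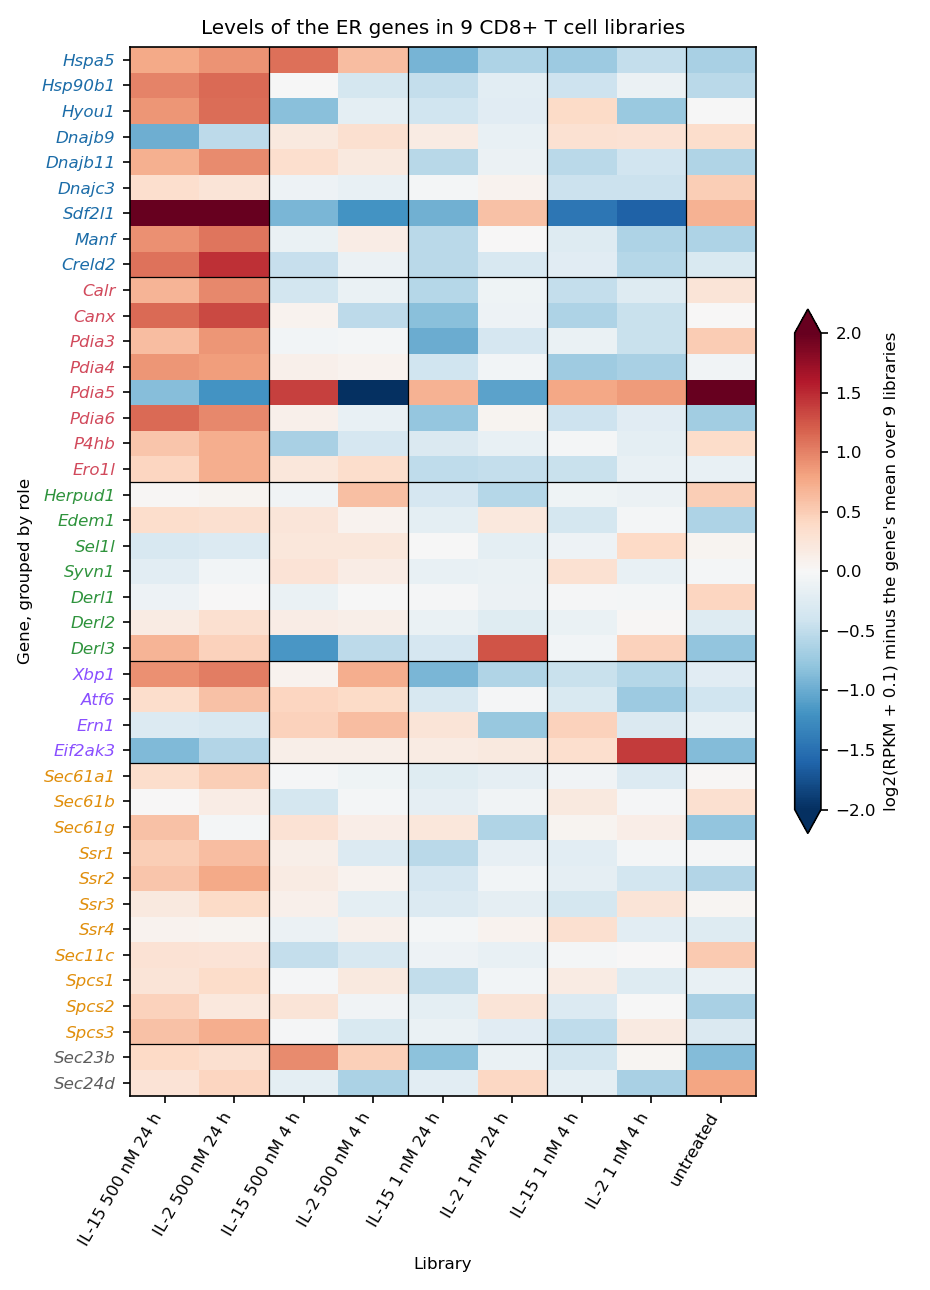
Level of the 41 ER genes (rows, coloured by role) in the 9 libraries (columns), as log2(RPKM + 0.1) minus each gene's mean over the 9 libraries, with colours limited at 2 either way. Most chaperone and disulfide rows are highest in the 2 columns at 500 nM and 24 h, while Dnajb9 and Eif2ak3 are low there.

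Of the lectin chaperones and disulfide enzymes, 7 of 8 rose and none fell, with a median log2 change of 1.11. Calr and Canx encode calreticulin and calnexin, which hold newly glycosylated proteins in the folding cycle. Calr measured 137 RPKM with IL-15 and 166 RPKM with IL-2 at 500 nM, against 57.7 RPKM with IL-15 and 80.6 RPKM with IL-2 at 1 nM and 102 RPKM in untreated cells, and rose by 1.14 ± 0.18 (adjusted p = 0.00047). Canx was at 48.1 RPKM with IL-15 and 54.7 RPKM with IL-2 at 500 nM, against 12.3 RPKM with IL-15 and 20.3 RPKM with IL-2 at 1 nM and 22.0 RPKM in untreated cells, and rose by 1.67 ± 0.26 (adjusted p = 0.00054). Both 500 nM libraries at 24 h were above the untreated library for each of these lectins, and both 1 nM libraries below it. Pdia3, the isomerase that works with calnexin and calreticulin, was at 19.9 RPKM with IL-15 and 23.8 RPKM with IL-2 at 500 nM, against 6.44 RPKM with IL-15 and 10.3 RPKM with IL-2 at 1 nM, a change of 1.40 ± 0.26 (adjusted p = 0.0014). Its untreated level was 18.5 RPKM, between the doses. Pdia6, an isomerase with a promoter element of the kind shown, was at 79.3 RPKM with IL-15 and 70.3 RPKM with IL-2 at 500 nM, against 21.1 RPKM with IL-15 and 37.5 RPKM with IL-2 at 1 nM, a change of 1.38 ± 0.25 (adjusted p = 0.0014).

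Pdia4, P4hb and Ero1l also passed as higher, P4hb and Ero1l only with the 24 h library of IL-2 at 500 nM included. P4hb, the classical protein disulfide isomerase, had the highest level per length of all members at 500 nM and 24 h, 377 RPKM with IL-15 and 429 RPKM with IL-2, against 212 RPKM with IL-15 and 233 RPKM with IL-2 at 1 nM. The untreated library had 332 RPKM of P4hb, between the doses. Ero1l, the oxidase that recharges the isomerases, was at 11.6 RPKM with IL-15 and 14.1 RPKM with IL-2 at 500 nM, against 5.96 RPKM with IL-15 and 6.08 RPKM with IL-2 at 1 nM. Untreated cells had 7.71 RPKM of Ero1l, also between the doses. Pdia4 was at 65.7 RPKM with IL-15 and 63.9 RPKM with IL-2 at 500 nM, against 27.1 RPKM with IL-15 and 34.3 RPKM with IL-2 at 1 nM. The remaining gene, Pdia5, had 0 to 141 counts per library, 141 of them in untreated cells and 0 with IL-2 at 500 nM for 4 h, which allows up to 0.0502 RPKM, and it did not pass.

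The sensors and regulators split. Xbp1, the transcription factor whose mRNA IRE1 splices, was at 330.1 RPKM with IL-15 and 354 RPKM with IL-2 at 500 nM, against 92.9 RPKM with IL-15 and 115 RPKM with IL-2 at 1 nM. The untreated level was 148 RPKM, above both 1 nM libraries and below both 500 nM libraries, and Xbp1 rose by 1.73 ± 0.21 (adjusted p = 0.00011). The Xbp1 count does not separate spliced from unspliced mRNA. Eif2ak3, the kinase PERK, was at 2.67 RPKM with IL-15 and 3.30 RPKM with IL-2 at 500 nM, against 5.62 RPKM with IL-15 and 5.74 RPKM with IL-2 at 1 nM and 2.70 RPKM in untreated cells, and fell at 500 nM, with a log2 change of −0.94 ± 0.29 (adjusted p = 0.027). The Eif2ak3 call was lost when the 24 h library of IL-15 at 500 nM (adjusted p = 0.15), IL-2 at 500 nM (0.16) or IL-15 at 1 nM (0.22) was left out. Atf6 ranged from 0.902 to 2.39 RPKM over the 9 libraries and did not pass at 24 h, with 2.01 RPKM with IL-15 and 2.39 RPKM with IL-2 at 500 nM, against 1.23 RPKM with IL-15 and 1.53 RPKM with IL-2 at 1 nM. Ern1 had 19 to 53 counts per library and did not pass.

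None of the 7 degradation genes passed at 24 h in edgeR, and their median log2 change was 0.09. The most abundant was Herpud1, which recruits the degradation complex and carries an ERSE-II site, at 191 RPKM with IL-15 and 195 RPKM with IL-2 at 500 nM, against 149 RPKM with IL-15 and 126 RPKM with IL-2 at 1 nM and 264 RPKM in untreated cells. The ubiquitin ligase Syvn1 (HRD1) ranged from 21.7 to 30.9 RPKM over the 9 libraries, its adaptor Sel1l from 5.94 to 9.89 RPKM and the mannose lectin Edem1 from 11.6 to 22.7 RPKM. The derlins form part of the export channel. Derl1 ranged from 91.6 to 136 RPKM, Derl2 from 19.2 to 28.5 RPKM and Derl3 from 1.09 to 6.32 RPKM. Edem1 and Derl2 were lowest in the untreated library, and Derl1 was highest there.

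Among the 11 genes of the translocon and signal peptidase, 4 rose and none fell, with a median of 0.51. Those that passed were Sec61a1, the channel subunit, at 128 RPKM with IL-15 and 141 RPKM with IL-2 at 500 nM, against 84.9 RPKM with IL-15 and 88.8 RPKM with IL-2 at 1 nM, the translocon-associated subunits Ssr1 and Ssr2, and the signal peptidase subunit Spcs3. Each of these 4 calls, and that of Sec23b below, was lost when the 24 h library of IL-2 at 500 nM was left out. Sec61a1 was at 102 RPKM in untreated cells, between the doses. Ssr2 was at 68.2 RPKM with IL-15 and 79.2 RPKM with IL-2 at 500 nM, against 36.6 RPKM with IL-15 and 44.6 RPKM with IL-2 at 1 nM. Ssr1 ranged from 6.33 to 14.2 RPKM over the 9 libraries and was highest with IL-2 at 500 nM and 24 h. The small channel subunits did not pass. Sec61b ranged from 178 to 282 RPKM over the 9 libraries and Sec61g from 5.43 to 14.2 RPKM. Ssr3 (41.7 to 69.9 RPKM), Ssr4 (106 to 159 RPKM), the catalytic subunit Sec11c (79.7 to 160.2 RPKM), Spcs1 (44.6 to 81.0 RPKM) and Spcs2 (15.3 to 32.8 RPKM) did not pass either. Spcs3 was at 19.4 RPKM with IL-15 and 21.5 RPKM with IL-2 at 500 nM, against 11.7 RPKM with IL-15 and 11.0 RPKM with IL-2 at 1 nM. Of the COPII coat genes, which bud vesicles from the ER, Sec23b passed, with 20.7 RPKM with IL-15 and 19.7 RPKM with IL-2 at 500 nM, against 8.85 RPKM with IL-15 and 14.3 RPKM with IL-2 at 1 nM and 8.55 RPKM in untreated cells. Sec24d, a cargo-binding subunit, ranged from 1.39 to 3.93 RPKM and did not pass.

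**Figure D3:**
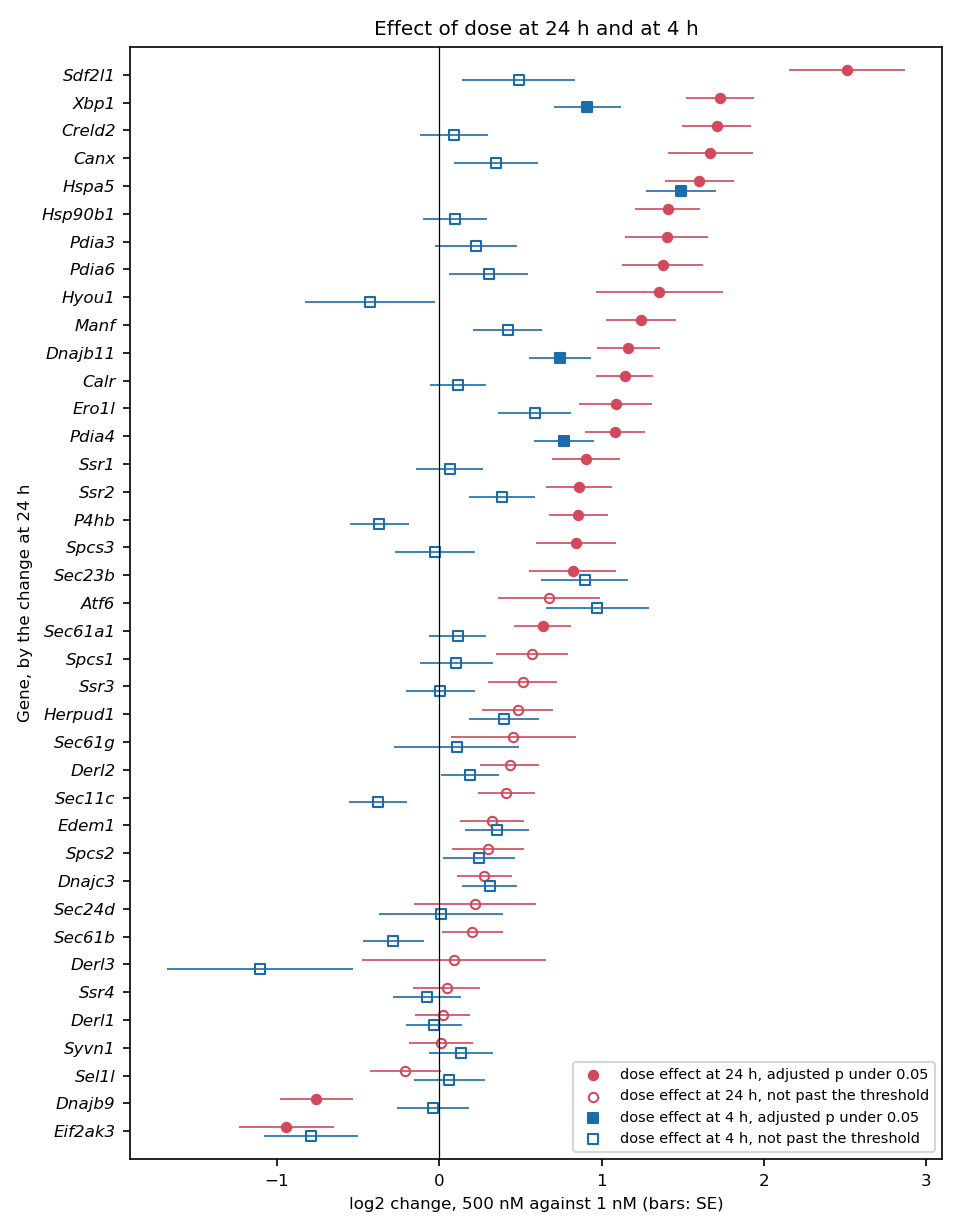
Log2 change of 39 ER genes between 500 nM and 1 nM at 24 h and at 4 h, each point the edgeR estimate with its SE and genes ordered by the change at 24 h; Pdia5 and Ern1 are not drawn because of their low counts. Sdf2l1 has the largest change at 24 h (2.51) and Hspa5 at 4 h (1.49).

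At 4 h the dose separated fewer genes than at 24 h, 9.76% of the members and 10.1% of all genes. Of 41 members, 4 were higher at 500 nM and none lower, where 5.42% of all genes were higher and 4.63% lower (10.1% in all), and the median log2 change was 0.11 over the members and −0.02 over all genes. Hspa5 was at 374 RPKM with IL-15 and 267 RPKM with IL-2 at 500 nM, against 105 RPKM with IL-15 and 125 RPKM with IL-2 at 1 nM, a change of 1.49 ± 0.21 (adjusted p = 0.00092). The IL-15 library at 500 nM and 4 h had the highest Hspa5 level of the 9, and Hspa5 was the only one of the 4 to pass with each library left out in turn. Xbp1 was at 184 RPKM with IL-15 and 289 RPKM with IL-2 at 500 nM, against 128 RPKM with IL-15 and 118 RPKM with IL-2 at 1 nM, a change of 0.91 ± 0.21 (adjusted p = 0.014). Pdia4 was at 38.1 RPKM with IL-15 and 37.5 RPKM with IL-2 at 500 nM, against 21.8 RPKM with IL-15 and 22.7 RPKM with IL-2 at 1 nM, a change of 0.77 ± 0.18 (adjusted p = 0.019). Dnajb11 was at 56.3 RPKM with IL-15 and 51.1 RPKM with IL-2 at 500 nM, against 30.5 RPKM with IL-15 and 34.2 RPKM with IL-2 at 1 nM, a change of 0.74 ± 0.19 (adjusted p = 0.027). In all, 1 member passed without IL-2 at 1 nM and 4 h, and 2 passed without IL-15 at 500 nM and 4 h. At this time, 1 of 11 myeloid and 2 of 12 B cell markers were lower at 500 nM.

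Several genes with large changes at 24 h did not pass at 4 h. Sdf2l1 was at 19.9 RPKM with IL-15 and 16.4 RPKM with IL-2 at 500 nM, against 13.9 RPKM with IL-15 and 12.2 RPKM with IL-2 at 1 nM, all below the untreated 61.5 RPKM. Creld2 was at 53.3 RPKM with IL-15 and 67.9 RPKM with IL-2 at 500 nM, against 63.1 RPKM with IL-15 and 49.2 RPKM with IL-2 at 1 nM. Hsp90b1 was at 79.3 RPKM with IL-15 and 62.4 RPKM with IL-2 at 500 nM, against 60.1 RPKM with IL-15 and 73.3 RPKM with IL-2 at 1 nM. For Creld2 and Hsp90b1 the doses overlapped at 4 h. Calr was at 66.6 RPKM with IL-15 and 77.7 RPKM with IL-2 at 500 nM, against 61.5 RPKM with IL-15 and 71.9 RPKM with IL-2 at 1 nM. Canx was at 23.0 RPKM with IL-15 and 15.2 RPKM with IL-2 at 500 nM, against 14.3 RPKM with IL-15 and 16.1 RPKM with IL-2 at 1 nM. The doses overlapped for these lectins too. P4hb was at 164 RPKM with IL-15 and 205 RPKM with IL-2 at 500 nM, against 250.2 RPKM with IL-15 and 224 RPKM with IL-2 at 1 nM, the lower values being those at 500 nM.

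Whether the dose effect differed between 24 h and 4 h was tested by the dose by time term. It was larger at 24 h for 6 of 41 members and smaller for none, where it was larger for 4.06% of all genes and smaller for 4.76% (8.81% in all), with medians of 0.47 over the members and −0.05 over all genes. The genes were Sdf2l1 (2.02 ± 0.49, adjusted p = 0.026), Creld2 (1.62 ± 0.30, 0.0077), Canx (1.32 ± 0.36, 0.043), Hsp90b1 (1.31 ± 0.28, 0.016), P4hb (1.23 ± 0.26, 0.014) and Calr (1.03 ± 0.25, 0.025), each as the log2 difference of the dose effects with its SE and edgeR adjusted p. Hspa5 did not pass, with 0.12 ± 0.30. DESeq2 called 11 members, and 1818 of all genes where edgeR called 1188. No edgeR call held with each library left out in turn. None passed without the 24 h library of IL-2 at 500 nM, 1 passed without that of IL-15 at 500 nM, and 3 passed without the 4 h library of IL-15 at 1 nM. The dose effect on 8 of 11 myeloid and 4 of 12 B cell markers was more negative at 24 h than at 4 h.

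**Figure D4:**
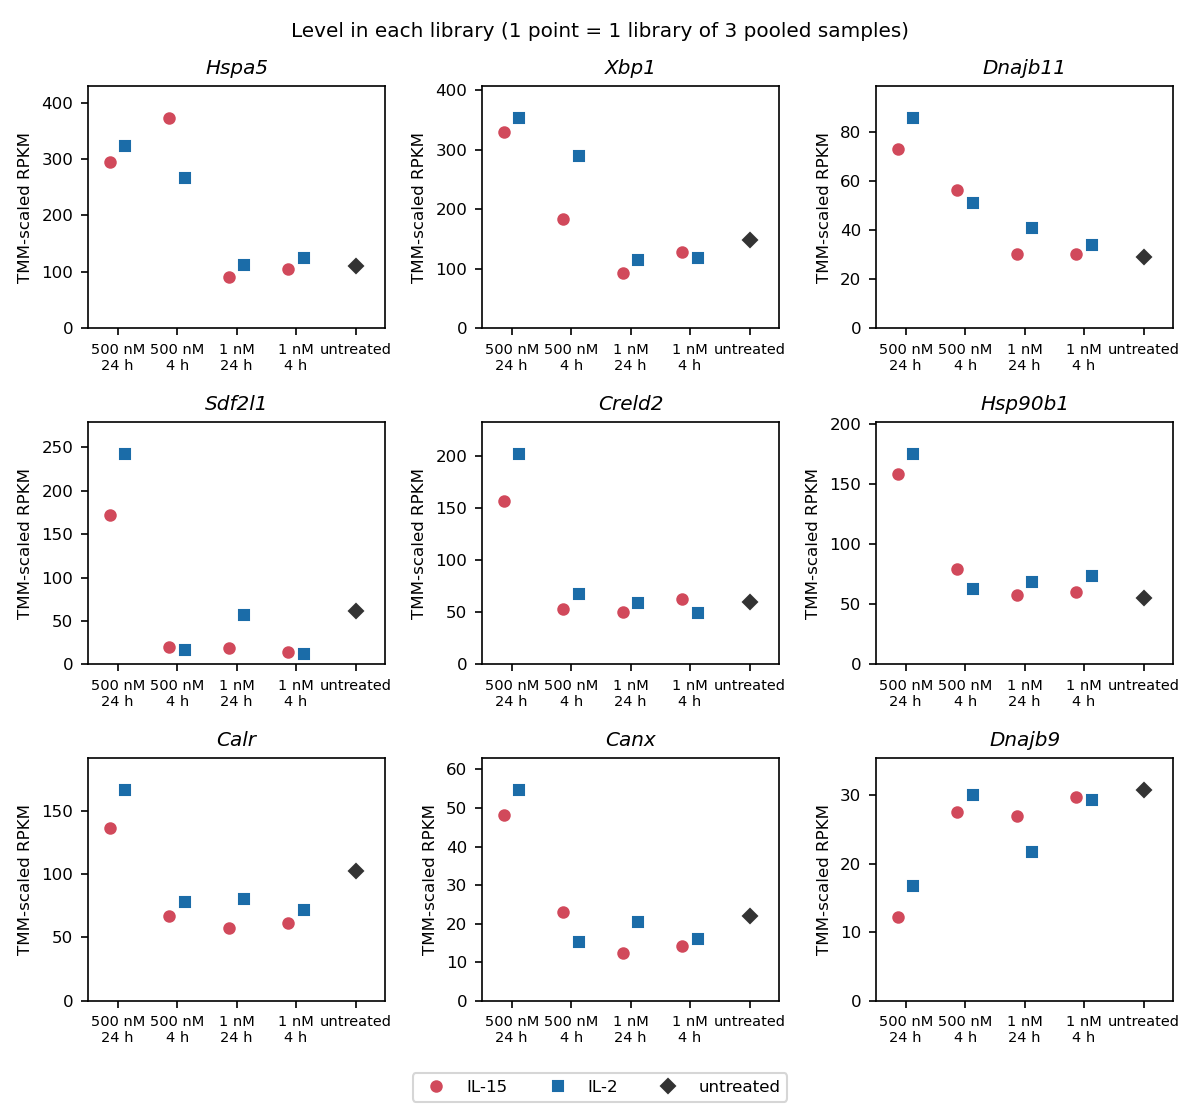
Level (TMM-scaled RPKM) of selected ER genes in each library, 1 point per library of 3 pooled samples, by dose and time with the untreated library last. Hspa5 and Xbp1 are high at 500 nM at both times, whereas Sdf2l1 and Creld2 stand well above the other libraries at 500 nM and 24 h, and Dnajb9 is lowest there.

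Over both times together, 19 members were higher and 1 lower at 500 nM than at 1 nM, where 16.1% of all genes were higher and 16% lower (32.1% in all). A fit without the dose by time term called 10 members, and 2170 of all genes where the main fit called 4325. In the same comparison 10 of 11 myeloid, 9 of 12 B cell, 4 of 9 plasma cell, 4 of 5 erythroid, 3 of 6 NK cell and 2 of 6 dendritic cell markers were lower at 500 nM, and Irf4 was higher. In 11 members (26.8%, against 8.55% of all genes) all 4 libraries at 500 nM lay above all 4 at 1 nM. In 9 members the 500 nM libraries lay above the untreated library too (22%, against 6.95% of all genes), and these were Hspa5, Dnajb11, Pdia4, Ero1l, Derl2, Xbp1, Atf6, Ssr2 and Sec23b. Eif2ak3 was the member with every 500 nM library below every 1 nM library, as in 10.3% of all genes. Its 4 h levels were 5.43 RPKM with IL-15 and 5.41 RPKM with IL-2 at 500 nM, against 6.30 RPKM with IL-15 and 13.3 RPKM with IL-2 at 1 nM.

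Time was compared within each dose. At 500 nM, 15 members were higher at 24 h than at 4 h and 2 were lower, where 13.3% of all genes were higher and 12.9% lower (26.3% in all), and the median log2 change was 0.42 over the members and −0.04 over all genes. Sdf2l1 led, with 172 RPKM with IL-15 and 242 RPKM with IL-2 at 24 h, against 19.9 RPKM with IL-15 and 16.4 RPKM with IL-2 at 4 h, a change of 3.46 ± 0.37 (adjusted p = 7.1e-05). The next largest were Creld2 (1.56 ± 0.21), Hyou1 (1.54 ± 0.40), Canx (1.41 ± 0.26) and Hsp90b1 (1.23 ± 0.20). Eif2ak3 (−0.88 ± 0.29) and Dnajb9 were those lower at 24 h, and the 4 h levels of Dnajb9 at 500 nM were 27.5 RPKM with IL-15 and 30.1 RPKM with IL-2. Hspa5 did not pass, with −0.06 ± 0.21. Of the 17 calls 6 held with each library left out in turn, and those of Hyou1, Eif2ak3 and Dnajb9 did not. The number passing was 8 when the 24 h library of either IL-15 or IL-2 at 500 nM was left out and 11 when the 4 h library of IL-2 at 500 nM was, and 7 of 11 myeloid and 5 of 12 B cell markers were lower at 24 h.

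At 1 nM no member differed between 24 h and 4 h in edgeR, where 2.89% of all genes did. At an unadjusted p under 0.05, a threshold at which all genes were not counted, there were 4 members, and DESeq2 called 1. Leaving out the 24 h library of IL-15 at 1 nM gave 1 call, as did leaving out either 4 h library at 500 nM or the 24 h library of IL-15 at 500 nM. Sdf2l1 had unequal levels with the cytokines at this dose, at 19.5 RPKM with IL-15 and 56.5 RPKM with IL-2 at 24 h, against 13.9 RPKM with IL-15 and 12.2 RPKM with IL-2 at 4 h. Its estimate was 1.44 ± 0.36. Over both doses, 10 members were higher and 2 lower at 24 h, where 11.7% of all genes were higher and 10.8% lower (22.6% in all). Of the markers over both doses, 4 of 11 myeloid, 4 of 6 dendritic cell, 3 of 5 erythroid, 3 of 12 B cell and 3 of 9 plasma cell genes were lower at 24 h, and 1 B cell, 1 plasma cell and 3 of 8 T cell genes were higher. At 1 nM alone, 6 of 11 myeloid (median log2 change 1.67), 4 of 8 T cell and 1 of 12 B cell markers were higher at 24 h. Of 9 plasma cell markers 2 were lower there, and of 6 dendritic cell markers 1. All 4 libraries at 24 h lay above all 4 at 4 h for Dnajc3 alone (2.44% of members, 5.06% of all genes), and below for Dnajb9 alone (5.73% of all genes). Dnajc3 was at 30.7 RPKM with IL-15 and 29.7 RPKM with IL-2 at 500 nM and 4 h. The count over both doses was 5 when the 24 h library of either IL-15 or IL-2 at 500 nM was left out and 6 when the 24 h library of IL-2 at 1 nM was, and a fit without the dose by time term called 1.

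Each dose and time was set against the single untreated library. These comparisons share that library, and its spread is assumed to be that of the treated ones. The labels give it no time in culture, so cytokine and time in culture cannot be told apart here. At 500 nM and 24 h, 15 members were higher than in untreated cells and 1 lower, where 12.8% of all genes were higher and 12.3% lower (25.2% in all), with medians of 0.58 over the members and 0.00 over all genes. The largest rises were Pdia6 (1.76 ± 0.33), Sdf2l1 (1.73 ± 0.45), Manf (1.61 ± 0.28), Hsp90b1 (1.60 ± 0.26), Creld2 (1.58 ± 0.27) and Hspa5 (1.48 ± 0.28, adjusted p = 0.0024), and Dnajb9 fell, with −1.09 ± 0.27 (adjusted p = 0.01). Some members higher at 500 nM than at 1 nM at 24 h did not pass against untreated cells. They were Hyou1 (1.05 ± 0.50), Calr (0.56 ± 0.22), Pdia3 (0.24 ± 0.31), P4hb (0.28 ± 0.22), Ero1l (0.73 ± 0.28), Sec61a1 (0.40 ± 0.22) and Ssr1 (0.58 ± 0.26). Leaving out IL-15 at 500 nM and 24 h left 10 members, without Dnajb9, and 9 of the 16 calls held with each library left out in turn. In this comparison 9 of 11 myeloid and 10 of 12 B cell markers were lower than in untreated cells.

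At 500 nM and 4 h, 3 members were higher than in untreated cells and 3 lower, where 7.92% of all genes were higher and 8.47% lower (16.4% in all). Hspa5 (1.54 ± 0.28), Sec23b (1.62 ± 0.35) and Dnajb11 (0.88 ± 0.24) were higher, and Sdf2l1 (−1.73 ± 0.40), Sec11c (−0.93 ± 0.21) and P4hb (−0.85 ± 0.21) lower. Without IL-15 at 500 nM and 4 h, 3 members passed, and only Hspa5 passed with each library left out in turn. Here 7 of 11 myeloid and 5 of 12 B cell markers were lower than in untreated cells. At 1 nM and 4 h, 1 member was higher, Eif2ak3 (1.81 ± 0.39), and 2 were lower, Sdf2l1 (−2.22 ± 0.40) and Dnajc3 (−0.92 ± 0.20), where 2.75% of all genes were higher and 3.55% lower (6.31% in all), and none of the members passed without IL-2 at 1 nM and 4 h, the library with the highest Eif2ak3 level. Myeloid markers were lower in 6 of 11. At 1 nM and 24 h no member passed in edgeR, where 1.65% of all genes did. At an unadjusted p under 0.05, a threshold at which all genes were not counted, there were 10 members, and DESeq2 called 2. Leaving out the 24 h library of IL-2 at 1 nM gave 1 call, as did leaving out either 4 h library at 500 nM.

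Direction over all 8 treated libraries gave a further view. In 9 members every treated library lay above the untreated one (22%, against 14% of all genes), and these were Hsp90b1, Dnajb11, Edem1, Derl2, Sec61g, Ssr2, Ssr4, Spcs2 and Sec23b. In 7 members every treated library lay below it (17.1%, against 15%), namely Dnajb9, Dnajc3, Pdia5, Derl1, Sec61b, Sec11c and Sec24d. In untreated cells Pdia5 was at 2.52 RPKM, Dnajc3 at 46.1 RPKM and Sec24d at 3.93 RPKM.

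The cytokines were compared at the same dose and time. In edgeR no member passed for IL-15 against IL-2 with all doses and times together, where 0% of 13479 genes passed. At an unadjusted p under 0.05, a threshold at which all genes were not counted, there was 1 member, and DESeq2 called 0. That member was Calr, with a log2 difference of −0.30 ± 0.12 and lower values with IL-15 in 4 of 4 pairs of libraries. Ero1l was likewise lower with IL-15 in 4 of 4 pairs, and the 2 genes are 4.88% of the members, against 4.97% of all genes. No member was higher with IL-15 in 4 of 4 pairs, as 4.84% of all genes were. The 95% interval of the difference lay within 1 log2 unit either way for 38 of 41 members. For Hspa5 it ran from −0.38 to 0.27, for Xbp1 from −0.55 to 0.08 and for Sdf2l1 from −0.94 to 0.15.

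Within a dose the cytokines were not separated either. At 500 nM no member passed (0.00742% of all genes did), and 0 had an unadjusted p under 0.05. All genes were not counted at that unadjusted threshold, here or in the tests that follow. At 1 nM no member passed (0.0148% of all genes did), and 3 had an unadjusted p under 0.05. The test of whether the cytokine difference changed with dose called no member (0.0148% of all genes), with 3 at an unadjusted p under 0.05. For both of these last comparisons, leaving out either 4 h library at 1 nM gave 1 call. DESeq2 called 0 members in each of the 3 tests.

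Genes of the same pathways outside the 41 members were read at 24 h between 500 nM and 1 nM, where 15.6% of all genes were higher and 15.6% lower. Of 10 subunits and partners of the oligosaccharyltransferase, which adds sugar chains to proteins as they enter the ER, 7 were higher and none lower, with a median log2 change of 0.91. The largest were Rpn1 (1.35 ± 0.19), Stt3a (1.31 ± 0.28), Ddost (1.07 ± 0.19) and Rpn2 (0.92 ± 0.17). Of 10 PERK-arm genes and ATF4 targets, 5 were higher and 1 lower, with a median of 1.12. Chac1, which degrades glutathione, rose by 1.98 ± 0.43 and Asns, asparagine synthetase, by 1.71 ± 0.41, while the stress-induced factor Atf3 fell, with −1.23 ± 0.25. At 4 h, 5 genes of this list rose and none fell, with a median over the 10 of 1.23, and 0 of 10 oligosaccharyltransferase genes passed in edgeR, where 5.42% of all genes were higher. At 4 h Atf3 was among those that rose, by 1.25 ± 0.24, with Chac1 (2.36 ± 0.43), Asns (2.15 ± 0.42) and Trib3 (1.84 ± 0.23).

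Fewer genes passed in the other lists at 24 h, where 15.6% of all genes were higher and 15.6% lower. In most of these lists the share that rose was near that of all genes. Among genes of the signal recognition particle and its receptor, 2 of 8 rose (Srp19 0.82 ± 0.18, Srpr 0.72 ± 0.17), and among other translocation genes 1 of 6 rose (Sil1 0.86 ± 0.24) and 1 fell (Sec62 −0.81 ± 0.23). Other degradation genes rose in 2 of 11 (Vcp 1.02 ± 0.17, Nploc4 0.66 ± 0.18), other disulfide enzymes and folding factors in 2 of 12 (Prdx4 1.11 ± 0.36, Fkbp2 0.86 ± 0.27) and other COPII genes in 2 of 10 (Sec13 0.97 ± 0.19, Sar1a 0.52 ± 0.18). Of the COPI coat and KDEL receptor genes, which bring escaped ER proteins back, 4 of 10 rose, led by Arcn1 (0.88 ± 0.18), and the receptor Kdelr1 fell, with −0.82 ± 0.18.

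Reads of neighbouring genes limit some of these values. In the annotation of GRCm38, 15 of the 41 members overlap another gene, among them Hspa5 with Rabepk, Pdia3 with Catsper2 and Syvn1 with Mrpl49, and strand use in counting is not given in the sources used here, so the reads of the 2 genes cannot be told apart where they overlap. No member shared identical counts with another symbol.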

How the data were processed

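The authors deposited 1 table per library, with raw counts of reads on 24373 transcripts (20418 symbols). Per the file headers they also hold RPKM values that the authors made from those counts, which were not tested. Per the submitters' processing notes, bases were called with CASAVA 1.8 and reads aligned with Bowtie 0.12.4 to mm8. The transcript with the highest mean count stood for each symbol. Of 42 listed symbols, 41 were found.

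The filter filterByExpr (minimum count 10, total 15) left 13479 genes, all 41 members included. Library sizes were normalised by TMM. The tool edgeR 4.0.16 (R 4.3.3, quasi-likelihood) fitted cytokine, each dose and time combination and untreated over 9 libraries, with 3 residual degrees of freedom, or 2 with a cytokine by dose term. Benjamini-Hochberg adjustment ran over all genes, with a threshold of 0.05. Each SE was worked back from the test, as the absolute log2 change over the square root of its F statistic. The intervals of the cytokine difference use the same SE. Levels are TMM-scaled RPKM from the counts, and marker levels TMM-scaled CPM. The code was tested on simulated data. Nothing says the pooled samples came from separate animals, so p-values measure the spread between these libraries, which may be technical, and limits for a count of 0 cover counting error only. Alternatives were DESeq2 1.42.0, median-of-ratios scaling, no filter, mean counts over transcripts, no dose by time term, and each library left out.

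The members and gene lists were chosen with earlier results of these data known. In each comparison up to 12 members past the threshold, those with the largest change, were named with statistics, and up to 4 genes per outside list. Dnajb9, Eif2ak3 and Atf3 at 24 h were added after their values were seen. Promoters are from RefSeq on GRCm38.p6.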

Additional observations from a re-analysis of the deposited data

Results flagged for a closer look

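For 6 genes the effect of dose differed between 24 h and 4 h in edgeR's test of the dose by time term, which is what singled them out. The log2 difference of the dose effects (24 h minus 4 h, ± SE) was 2.02 ± 0.49 for Sdf2l1, 1.62 ± 0.30 for Creld2, 1.32 ± 0.36 for Canx, 1.31 ± 0.28 for Hsp90b1, 1.23 ± 0.26 for P4hb and 1.03 ± 0.25 for Calr. In all 6 the effect of the higher dose was more positive at 24 h than at 4 h. Without the 24 h library of IL-2 at 500 nM, 0 of the 6 passed.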

How the results depend on the processing

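All alternatives kept the direction of every call of a member. The 106 calls of members over all comparisons, named above or not, all passed again with DESeq2, median-of-ratios scaling, no filter or mean counts over transcripts. Without the dose by time term, 21 of the 32 calls it applies to no longer passed, members called for dose over both times numbered 10, and for time over both doses 1. Over all genes that fit called 2170 for dose and 715 for time, where the main fit called 4325 and 3045. DESeq2 called 11 members for dose by time, 1 for time at 1 nM and 2 for 1 nM and 24 h against untreated. Over all genes DESeq2 called 1818, 844 and 760 in these tests, where edgeR called 1188, 390 and 222. With no filter, 1 member was called for time at 1 nM. With each library left out in turn, the members called numbered 15 to 20 for dose over both times, 13 to 24 for dose at 24 h, 1 to 5 for dose at 4 h, 0 to 8 for dose by time, 5 to 13 for time over both doses, 8 to 18 for time at 500 nM and 0 to 1 for time at 1 nM. Against untreated the ranges were 10 to 17 at 500 nM and 24 h, 3 to 7 at 500 nM and 4 h, 0 to 1 at 1 nM and 24 h and 0 to 3 at 1 nM and 4 h. For IL-15 against IL-2 they were 0 to 0 over all conditions and at 500 nM, and 0 to 1 at 1 nM and for the change with dose. Calls over all genes shifted in these fits too. The cause of these shifts was not tested, beyond the lost library leaving fewer degrees of freedom. A library left alone in its condition was assumed to vary like the others. The labels carry no replicate numbers to block on. IL-15 and IL-2 libraries were matched by dose and time in every fit of the cytokines. Members with few reads, Pdia5 and Ern1, are limited by depth.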

Other observations

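The 41 genes together took 0.741% of all reads with IL-15 and 0.798% with IL-2 at 500 nM and 24 h, against 0.400% with IL-15 and 0.456% with IL-2 at 1 nM and 24 h. At 4 h they took 0.510% with IL-15 and 0.529% with IL-2 at 500 nM, against 0.420% with IL-15 and 0.460% with IL-2 at 1 nM, and untreated cells stood at 0.489%. Of the 11 members with an ER stress response element or ERSE-II in the promoter window, 4 passed the dose by time test, as did 2 of the 22 windowed members with neither, where the effect was larger at 24 h for 4.06% of all genes. None of these 6 calls held with each library left out in turn, and the difference between the groups of members was not tested.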
